A study of Mus musculus with 28 samples.

Results

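Cells without GFP from the thyroid gland were compared with cells without GFP from the salivary gland, both sorted fresh from 9 month old H2B-GFP mice. The comparison was chosen by the sample titles: 3 thyroid GFP- and 3 salivary GFP- libraries at 9 months, which are 6 of the 28 libraries of the series. The series follows thyroid cells that keep a fluorescent histone label at 3, 6 and 9 months and has salivary gland at 9 months only. The labels name every mouse H2B-GFP and give no promoter, sex or labelling schedule. All groups used here carry that transgene, and the GFP- fraction holds cells negative for it at the sort. Whether replicates were separate mice is not stated. A p-value here covers only the spread among replicate samples, which may be technical. That spread was estimated over all 12 libraries at 9 months, GFP+ ones included.

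The thyroid makes thyroid hormone in follicles, whose cells secrete and iodinate thyroglobulin. Calcitonin is made by C cells that lie between the follicles, and the parathyroid glands lie against the thyroid. Salivary glands secrete a protein-rich fluid from acinar cells, and their ducts change its salt content. In rodents the granular ducts of the submandibular gland also store kallikreins and growth factors.

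Reads assigned to genes numbered 5884, 132610 and 130203 in thyroid replicates 1, 2 and 3, and 76584, 36095 and 188657 in the salivary replicates. Between 1181 and 9285 genes were detected per library. Thyroid replicate 1 was the shallowest, and 65.9% of its reads lay outside genes, against 13.3 to 23.1% in the other 5. A gene with 0 reads could still have made up 15.9 to 510 CPM in a library (reads scaled to the library size), taking 3 reads as the limit. Levels below are normalised CPM, in which the library size is first multiplied by edgeR's TMM factor (0.248 to 1.87 in these 6 libraries), or shares of all reads in genes.

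Of 974 genes tested, 96 were higher in thyroid (9.86%) and 42 were lower (4.31%) at an adjusted p under 0.05 (edgeR, quasi-likelihood F test, Benjamini-Hochberg). The lower genes were led by salivary secretory proteins, and the higher genes by calcitonin, parathyroid hormone and genes of connective tissue. Over all tested genes the median log2 fold change, thyroid minus salivary, was 0.17, with 537 above 0 and 437 below. That median depended on the scaling: it was 1.60 with DESeq2's size factors and 2.24 with plain library sizes. All 96 higher calls and 28 of the 42 lower calls were also made under both of those scalings. Those scalings called 469 and 778 genes higher, so a gene given below as not called may be called under them. Without salivary replicate 3 only 1 of the 96 higher genes was still called, against 29 of the 42 lower genes.

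**Figure D1:**
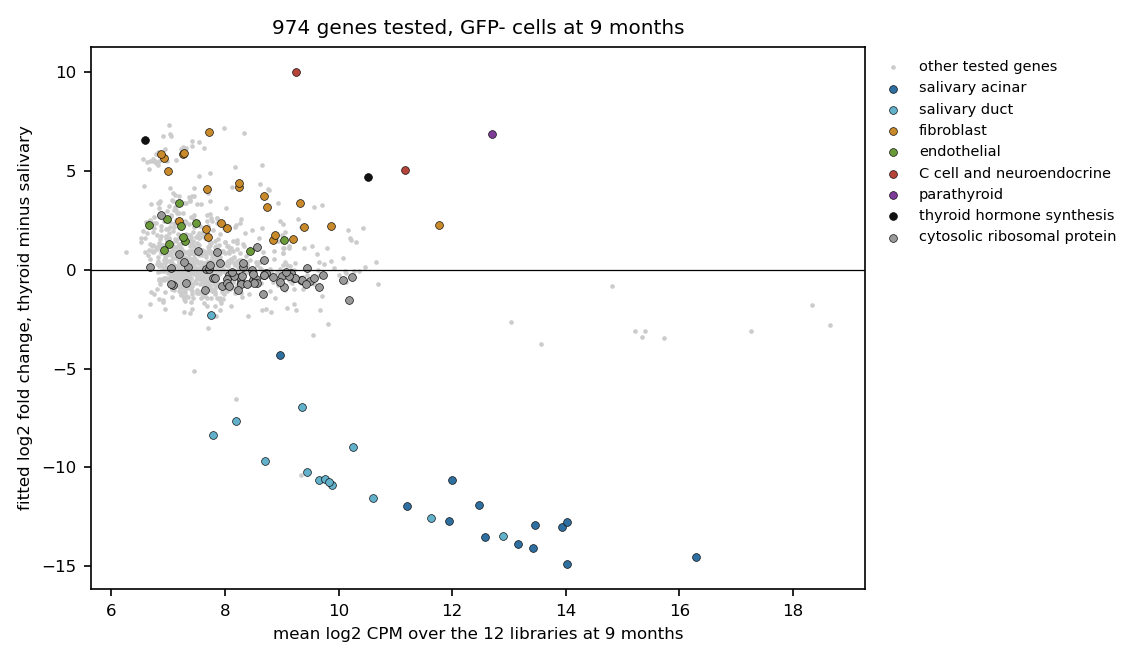
Fitted log2 fold change (vertical axis, thyroid minus salivary) against mean log2 CPM over the 12 libraries at 9 months (horizontal axis) for the 974 tested genes, each point a gene and the colours the gene lists. Acinar and duct genes lie between -2.29 and -14.91, while Calca (10.04) and Pth (6.89) lie at the upper edge.

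Salivary acinar proteins took up much of the salivary libraries and were close to absent from thyroid. The 31 acinar genes listed, secreted products and regulators of acinar cells, held 16, 28.01 and 13.9% of the reads in salivary replicates 1 to 3. In thyroid replicates 1 to 3 they held 0, 0.0226 and 0.0184%. Of the 31, 24 had reads and 13 passed the filter on low counts, and all 13 were called lower (median log2 fold change -12.90, or -11.71 with genes at 0 reads in thyroid set to their bounds). A gene high in 1 gland only passes the filter through that gland, so this count describes the list and supports nothing further. As in any bulk sample, fewer cells of a type and less RNA per cell cannot be told apart.

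Mucl2 (ENSMUSG00000036925), a mucin-like secreted protein, was the most abundant of them. It had 6831, 4244 and 8084 reads in the salivary libraries, which is 8.92, 11.8 and 4.29% of all reads there. In the thyroid libraries it had 0, 3 and 0 reads. Every salivary library lay far above every thyroid library: the ratio of pooled reads on the normalised scale was 19257 (exact 95% interval 6589 to 93389, counting error only; edgeR adjusted p = 2.95e-08).

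The secretoglobins, small secreted proteins that form dimers, followed. Scgb2b27 had 1409, 740 and 2439 salivary reads and 0 in every thyroid library, a level at least 4612-fold lower in thyroid when 3 reads are allowed over the 3 thyroid libraries (edgeR adjusted p = 3.01e-07). Its partner Scgb1b27 had 1515, 838 and 1840 salivary reads and 0, 2 and 0 thyroid reads (pooled ratio 6322, interval 1749 to 52218). Scgb2b26 had 317, 213 and 564 against 0, 1 and 1 (pooled ratio 1649). In all 3 genes salivary replicate 3, the deepest library, had the most reads but the smallest share, 1.29% for Scgb2b27 against 1.84% and 2.05% in replicates 1 and 2.

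Further secreted acinar products showed the same separation. Prol1, a proline-rich mucin also named Muc10, had 695, 927 and 965 salivary reads and 0, 1 and 0 thyroid reads. Car6, the secreted carbonic anhydrase of saliva, had 590, 266 and 775 and 0, at least 1639-fold lower in thyroid. Pip, the prolactin-inducible protein, held 0.676, 0.862 and 0.324% of salivary reads and had 0, 1 and 0 reads in thyroid (edgeR adjusted p = 7.26e-06). Bpifa2, a salivary lipid-binding protein, had 29, 140 and 672 and 0, at least 845-fold lower. Smgc, a submandibular gland secretory protein, had 79, 694 and 4989 and 0, 1 and 0. Smgc overlaps the mucin gene Muc19 in the genome, so reads of the pair may be split between them. Muc19 itself had 0, 8 and 31 salivary reads and 0 in thyroid and did not pass the filter.

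The 3 Dcpp genes, which encode secreted demilune and parotid proteins, were all called lower in thyroid. All 3 had 0 reads in the 3 thyroid libraries. They lie side by side on mouse chromosome 17 and are near copies of each other. Their upstream sequences are shown because they make that likeness visible: the 80 bases before each start hold a run of 48 identical bases, given in capitals (RefSeq promoters, GRCm38.p6, plus strand).
Dcpp1, chr17:23880796-23880875: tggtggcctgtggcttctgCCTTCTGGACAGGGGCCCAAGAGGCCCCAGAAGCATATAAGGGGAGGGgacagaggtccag
Dcpp2, chr17:23898642-23898721: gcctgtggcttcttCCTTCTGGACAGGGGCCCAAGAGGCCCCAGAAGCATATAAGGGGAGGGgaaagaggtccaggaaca
Dcpp3, chr17:23917378-23917457: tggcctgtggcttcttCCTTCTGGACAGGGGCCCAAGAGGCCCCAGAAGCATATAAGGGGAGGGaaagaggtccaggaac
That run is present in the 250 upstream bases of 3 of 32851 promoters (0.00913%), those of Dcpp1, Dcpp2 and Dcpp3. The counts were made on another build, mm9, so these coordinates do not apply to them. With copies this close, how reads were divided among the 3 genes is uncertain, and the sum is safer than each part. Dcpp1 held 0.0862, 0.817 and 0.409% of the reads in salivary replicates 1 to 3 (at least 1138-fold lower in thyroid). Dcpp2 held 0.134, 1.94 and 0.923% (at least 2556-fold) and Dcpp3 0.141, 1.99 and 1.32% (at least 3340.1-fold). In each, salivary replicate 1 had the smallest share and replicate 2 the largest.

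The salivary duct genes that could be tested were called lower in thyroid. The 34 duct genes listed held 1.31, 1.29 and 3.41% of salivary reads and 0.017, 0.0211 and 0.0192% of thyroid reads. Of the 33 with reads, 14 passed the filter and all 14 were called lower (median -10.41, or -8.23 at the bounds). Of these 14, 10 had 0 reads in thyroid and passed the filter only through the salivary libraries, so this count too describes the list and supports nothing further. Klk1, tissue kallikrein, a serine protease that releases kinins, had 58, 180 and 2958 salivary reads and 0 in thyroid (at least 3212-fold lower, edgeR adjusted p = 2.34e-06). Its level in salivary replicates 1 to 3 was 3278, 12504 and 45932 normalised CPM, so the replicates differed widely while none overlapped thyroid. Klk1b26, a related kallikrein, had 160, 56 and 1283 and 0 (at least 1507-fold lower).

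Among the other Klk1b genes, Klk1b3 had 39, 10 and 102 salivary reads, Klk1b5 12, 24 and 265, Klk1b16 101, 11 and 245 and Klk1b21 31, 7 and 60. Together these 4 had 1 read in thyroid, of Klk1b21 in replicate 2. The Klk1b genes form a cluster of near-identical copies, and the split of reads among them is uncertain. Egf, the epidermal growth factor stored in granular ducts, had 96, 18 and 129 salivary reads and 0 in thyroid (at least 244-fold lower, edgeR adjusted p = 1.94e-09). Crisp3, a cysteine-rich secretory protein, had 141, 46 and 324 and 0 (at least 514-fold lower). Fxyd2, a subunit that tunes the sodium pump, had 10, 6 and 46 and 0 (at least 62.3-fold lower).

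The protease inhibitor gene Wfdc2 was the exception within the duct list. It had 0, 14 and 13 reads in thyroid and 2, 8 and 38 in salivary gland, 63.8 ± 55.3 against 419.6 ± 266 normalised CPM (mean ± SD, n = 3). The log2 fold change was -2.29 (SE 0.74, edgeR adjusted p = 0.0216), but it was -1.01 with DESeq2's size factors (adjusted p = 0.196) and the call was lost.

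The salivary libraries differed among themselves in which products they held. Over the 27 tested acinar and duct genes, 14 took a higher share of reads in replicate 3 than in replicate 1 and 13 took a lower share. The ratio of the highest to the lowest share over the 3 libraries had a median of 3.37 and ran from 1.44 for Crisp3 to 25.6 for Smgc. Klk1 (20.7), Dcpp2 (14.4) and Dcpp3 (14.1) also varied widely, and Mucl2 varied 2.74-fold. The total behind these shares includes ribosomal RNA, which made up 60.4, 38.9 and 57.3% of it in salivary replicates 1 to 3. The part of ribosomal RNA in the spread was not tested. As a check for libraries deposited more than once, no pair of replicates held identical counts, and chi-square per degree of freedom was 2.56 or more in every pair. That value grows with depth and treats reads as independent molecules, so it does not compare the spread of the glands. Salivary replicate 1 was low in Smgc, Dcpp and Klk1 and high in Egf. Car6 had a similar share in replicates 1 and 2 (0.770 and 0.737%) and a lower one in replicate 3 (0.411%).

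**Figure D2:**
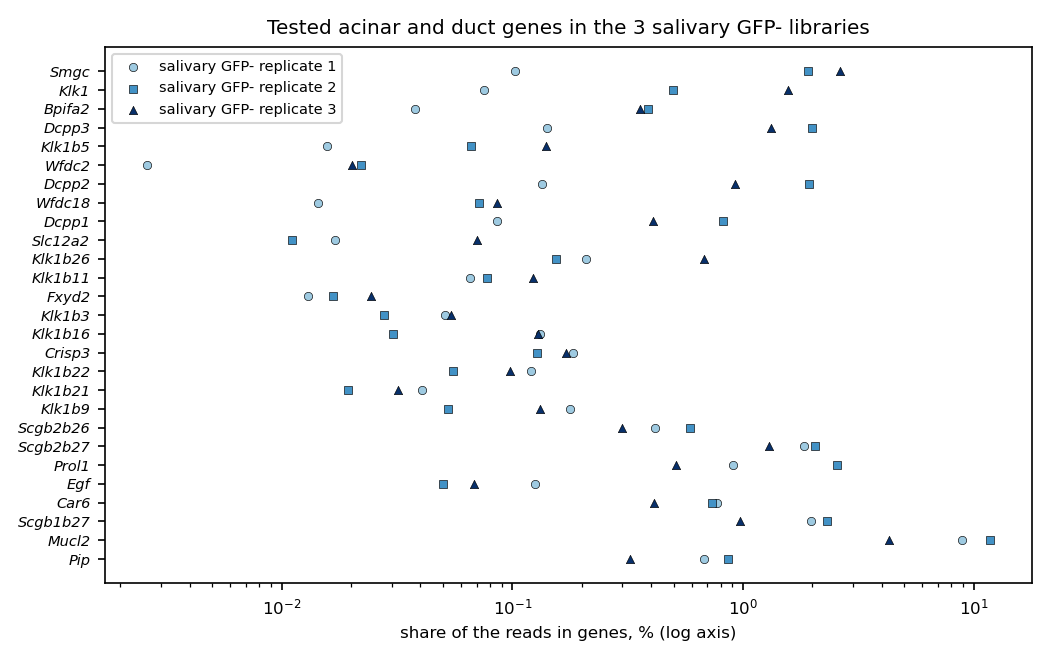
Share of the reads in genes, in % on a log axis (horizontal), of the 27 tested acinar and duct genes (vertical, ordered by the ratio of replicate 3 to replicate 1) in salivary GFP- replicates 1 to 3, each symbol a library. Smgc spans 0.103 to 2.64% and Mucl2 4.29 to 11.8%.

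Classical acinar regulators were thinly covered. Aqp5, the apical water channel of acinar cells, had 4, 6 and 11 salivary and 0, 6 and 2 thyroid reads. It did not pass the filter of the reported fit. With thyroid replicate 1 left out it was tested, with a log2 fold change of -2.92 (edgeR adjusted p = 0.00819). Bhlha15, the transcription factor Mist1 of secretory cells, had 1 read in all 6 libraries. Krt14, a keratin of basal and myoepithelial cells, had 2, 1 and 2 salivary and 0, 3 and 1 thyroid reads, and neither gland could be called higher at this depth.

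Of the general epithelial genes, 6 of 15 were tested, and Ehf and Krt18 were called lower in thyroid, where 4.31% of all tested genes were. Ehf, an epithelial transcription factor, had 13, 13 and 48 salivary and 0, 2 and 0 thyroid reads (pooled ratio 112, interval 29.8 to 938, edgeR adjusted p = 3.06e-08). Krt18, a keratin of simple epithelia, had 2, 3 and 24 and 1, 13 and 3, or 231 ± 131 against 74.9 ± 47.4 normalised CPM. Its libraries overlapped between the glands, and its call (log2 fold change -2.14, adjusted p = 0.0312) was lost with DESeq2's size factors (-0.71, adjusted p = 0.434). Epcam, the epithelial adhesion molecule, was present in both glands, at 0, 128 and 231 normalised CPM in thyroid and 226, 556 and 575 in salivary gland, and did not pass the test (log2 fold change -1.53, adjusted p = 0.146). The summed list held 0.153, 0.106 and 0.0699% of thyroid and 0.0535, 0.108 and 0.129% of salivary reads, which overlap.

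Genes of salt and water transport went in both directions: of 6 tested, 3 were lower and 1 was higher in thyroid. Of all tested genes 4.31% were lower and 9.86% higher. Slc12a2, the cotransporter that loads acinar cells with chloride, had 13, 4 and 133 salivary and 0, 4 and 12 thyroid reads (log2 fold change -4.30, SE 0.92, edgeR adjusted p = 8.65e-05). Atp1b1, a sodium pump subunit, stood at 1243, 1042 and 3540.4 normalised CPM in salivary gland and 0, 303.5 and 425 in thyroid (-2.74, adjusted p = 0.0254), without overlap. Its call was lost with plain library sizes (-0.67, adjusted p = 0.243), in DESeq2 and without any 1 of the libraries other than thyroid replicate 1. Fxyd3, another pump regulator, had 4, 6 and 23 salivary reads and 2, 0 and 0 thyroid reads, all of the latter in the shallow replicate 1, and its call (adjusted p = 6.55e-05) was lost with DESeq2's size factors (adjusted p = 0.151). Aqp1, a water channel of blood vessels and other cells, was the gene that was higher: it had 1, 33 and 26 thyroid reads and 0 in salivary gland, at least 6.63-fold higher (adjusted p = 0.00131).

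Thyroglobulin was higher in the thyroid libraries but took a small part of them. Tg (ENSMUSG00000053469), the protein scaffold on which thyroid hormone is made, had 4, 711 and 1176 thyroid reads, 0.068, 0.536 and 0.903% of the reads there. In salivary gland it had 7, 3 and 1 reads. On the normalised scale thyroid stood at 458, 4796 and 8778 CPM and salivary gland at 396, 208 and 15.5. The lowest thyroid library, replicate 1 with 4 reads, lay just above the highest salivary library, and the log2 fold change was 4.73 (SE 1.20, edgeR adjusted p = 0.00198). Without salivary replicate 3 it was 4.05 (adjusted p = 0.159).

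Of the 14 hormone synthesis genes listed, 10 had reads and only Tg and Slc26a7 passed the filter. Both were called higher, where 9.86% of all tested genes were. Slc26a7, an anion transporter of follicular cells, had 0, 32 and 22 thyroid reads and 0 in salivary gland (at least 5.97-fold higher, edgeR adjusted p = 0.0024). Iyd, the deiodinase that recovers iodide, had 0, 39 and 50 thyroid reads and 0 in salivary gland. It did not pass the filter of the reported fit and was higher in the fit without thyroid replicate 1 (edgeR adjusted p = 4.58e-05). Without salivary replicate 3, where 3 of the listed genes were tested, 0 were called. Dio1, a deiodinase that activates the hormone, had 0, 9 and 16 thyroid and 0, 0 and 5 salivary reads. Slc5a5, the iodide importer, had 0, 3 and 0, and Tshr, the receptor for thyrotropin, 0, 2 and 0, with 0 in salivary gland for both. Tg, Iyd and Slc26a7 thus had the most thyroid reads of the list, and the importer and the receptor were near 0.

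The thyroid transcription factors were barely sampled. Foxe1 had 0, 10 and 7 thyroid reads, Nkx2-1 0, 0 and 8 and Pax8 0, 3 and 3, and all 3 had 0 in salivary gland. None passed the filter. For Foxe1 the pooled thyroid level was at least 1.88-fold the salivary limit. For Nkx2-1 and Pax8 the thyroid level was itself under the salivary limit of 3 reads, so no difference was detectable at this depth. Zbtb20, a repressor listed with them, was tested and stood at 458, 506 and 545 normalised CPM in thyroid and 169.5, 208 and 388 in salivary gland (log2 fold change 0.88, edgeR adjusted p = 0.573). The libraries did not overlap, and the gene was called higher with DESeq2's size factors (2.33, adjusted p = 0.00176) and with plain library sizes.

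The 12 C cell and neuroendocrine genes listed held 0.204, 1.23 and 1.04% of the reads in thyroid replicates 1 to 3 and 0.00653, 0.0139 and 0.00106% in the salivary ones. Chga, which parathyroid cells make too, carried most of that thyroid share, with 0.153, 0.925 and 0.667%. Calca (ENSMUSG00000030669), which encodes calcitonin and the peptide CGRP, had 3, 322 and 399 thyroid reads and 0 in every salivary library. Thyroid levels were 344, 2172 and 2978 normalised CPM, at least 80-fold above salivary gland (edgeR adjusted p = 2.32e-07). Calca was the 1 higher gene still called without salivary replicate 3 (adjusted p = 0.00095). Chga, a protein of secretory granules, had 9, 1226 and 868 thyroid and 5, 4 and 0 salivary reads (log2 fold change 5.06, SE 1.41, adjusted p = 0.00671). Scg2, another granule protein, had 0, 52 and 52 thyroid reads and 0 in salivary gland, and did not pass the filter of the reported fit. In the fit without thyroid replicate 1 Scg2 was called higher (edgeR adjusted p = 1.13e-05). Without salivary replicate 3, 3 of the listed genes were tested and 1, Calca, was called.

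Of the thyroid, C cell and parathyroid genes listed, parathyroid hormone had the most reads in each thyroid library. Pth (ENSMUSG00000059077), the calcium-raising hormone of parathyroid chief cells, had 30, 4607 and 2310 thyroid reads, 0.51, 3.47 and 1.77% of the reads there. In salivary gland it had 5, 3 and 0 reads. The groups did not overlap, at 3439, 31074 and 17242 against 283, 208 and 0 normalised CPM (log2 fold change 6.89, SE 1.78, edgeR adjusted p = 0.00244). In each thyroid library Pth exceeded Tg, by 30 reads to 4 in replicate 1, 4607 to 711 in replicate 2 and 2310 to 1176 in replicate 3. Libraries were made with a 3' mRNA kit, and the part of transcript length in this order was not tested. The other parathyroid genes had few reads: Gcm2, the factor that specifies the gland, had 0, 3 and 7 thyroid reads, Gata3 0, 20 and 10 and Casr, the calcium sensor, 0, 1 and 1, with 0 in salivary gland. Kl, klotho, had 0, 32 and 16 and 0, 0 and 1.

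**Figure D3:**
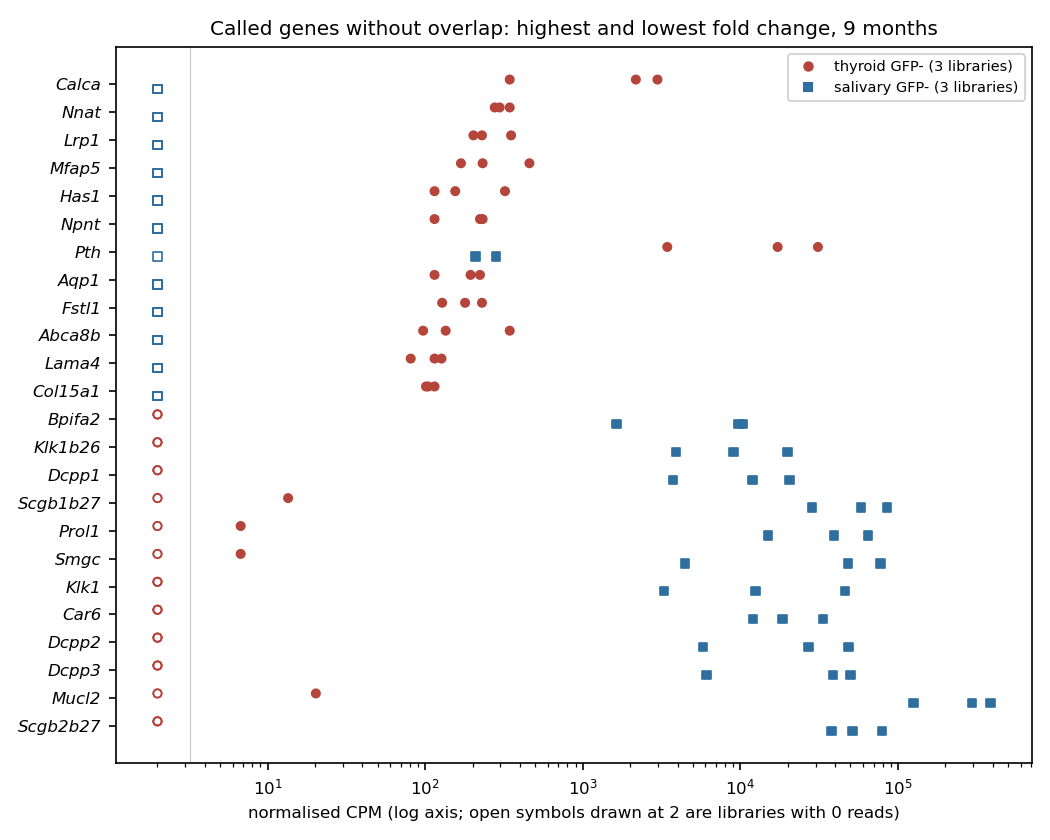
Normalised CPM (horizontal log axis) of the 12 highest and 12 lowest genes by fitted fold change (vertical axis) among those called without overlap between the glands and with a mean log2 CPM of 4 or more, each symbol 1 library, with open symbols for 0 reads. Calca reaches 344 to 2978 normalised CPM in thyroid with 0 reads in salivary gland, and Mucl2 stands at 125528 to 386026 in salivary gland.

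The 8 thyroid GFP- libraries at 3 and 6 months, which the contrast did not use, held the same 3 messages. In CPM without scaling factors Tg stood at 679.8, 5362 and 9032 in the 9 month libraries, 4506 to 6765 at 3 months and 1858 to 7039.7 at 6 months. Calca stood at 509.9, 2428 and 3064, with 966 to 2115 at 3 months and 619 to 2648 at 6 months. Pth stood at 5099, 34741 and 17742, with 6562 to 21798 and 18369.5 to 67583. Thyroid replicate 1 was below all of the 3 and 6 month libraries for each of the 3 genes. For Calca the lowest 6 month value, 619 CPM, was 3 reads in a library of 4845. Replicate 1 had 3 Calca reads in 5884, so for that pair the order rests on library size alone. Salivary acinar genes held 0.0107 to 0.122% of thyroid reads at 3 months and 0.0067 to 0.0206% at 6 months. The highest of these was a 3 month library in which Dcpp3 reached 743 CPM, while Mucl2 did not exceed 42.8.

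Part of the fibroblast list was called higher in thyroid. Of the 26 fibroblast genes listed 23 were tested, all 23 had positive fold changes and 11 were called higher, where 9.86% of all tested genes were. The median was 3.18, or 2.16 at the bounds, against 0.17 for all tested genes. Of the 23, 6 had 0 reads in salivary gland, which fixed their direction. These counts therefore describe the list and support nothing further. The list held 0.731, 1.27 and 1.59% of thyroid reads and 0.106, 0.0997 and 0.0159% of salivary reads. Mfap5, a microfibril protein, had 4, 25 and 31 thyroid reads and 0 in salivary gland (at least 6.63-fold higher, edgeR adjusted p = 0.00198). Vim, the mesenchymal filament vimentin, stood at 573, 405 and 478 normalised CPM in thyroid and 113, 0 and 15.5 in salivary gland (3.72, SE 1.06, adjusted p = 0.0078). Fn1, fibronectin, had 0, 43 and 46 and 1, 0 and 0 reads (pooled ratio 29.5, interval 5.16 to 1179). Pi16, a marker of adventitial fibroblasts, had 1, 22 and 49 and 0, 1 and 0, and Col6a2, a collagen VI chain, 1, 31 and 34 and 1, 0 and 0.

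The most abundant fibroblast gene did not pass the test. Dcn, the proteoglycan decorin, stood at 1490.1, 3999.7 and 5926 normalised CPM in thyroid and 1243, 1181 and 46.6 in salivary gland, a log2 fold change of 2.27 (SE 1.35, edgeR adjusted p = 0.308). Col1a1, a chain of collagen I, had 0, 12 and 23 thyroid reads and 3, 0 and 0 salivary reads, so the groups overlapped (1.66, adjusted p = 0.366). Its partner chain Col1a2 had 0, 66 and 140 and 4, 0 and 0 and was called (3.39, adjusted p = 0.0235). Pdgfra, a receptor of fibroblasts, had 1, 24 and 20 and 3, 0 and 0 and was not called (adjusted p = 0.215). For Dcn, as for the list, salivary replicate 3 was the lowest library, and without it 0 of 25 tested fibroblast genes were called, with a median of 1.95.

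Of 25 endothelial genes 11 were tested and 4 were called higher in thyroid, where 9.86% of all tested genes were. All 11 had positive fold changes (median 1.67). With DESeq2's size factors all 11 were called higher, where 469 of all 974 tested genes were. Without salivary replicate 3, 0 of 16 tested were called higher, where 1 of all 1304 tested genes was. The list held 0.527, 0.695 and 0.55% of thyroid and 0.0692, 0.0416 and 0.0466% of salivary reads, without overlap. Esm1, a proteoglycan of endothelial cells, stood at 344, 432 and 291.1 normalised CPM in thyroid and 113, 0 and 15.5 in salivary gland (log2 fold change 3.39, SE 0.90, edgeR adjusted p = 0.00368). Igfbp3, a carrier of insulin-like growth factors, stood at 458, 492 and 358 and 226, 69.5 and 31.1 (2.36, adjusted p = 0.0346). Plpp1, a lipid phosphatase, and Emcn, the sialomucin endomucin, were called with smaller margins (2.60, adjusted p = 0.0304, and 2.23, adjusted p = 0.0454). Kdr, the main VEGF receptor, had 0, 143 and 89 thyroid and 8, 2 and 15 salivary reads and did not pass the reported filter. In the fit without thyroid replicate 1 it was not called (1.71, edgeR adjusted p = 0.0696). Plvap, a protein of fenestrated vessels, was not called (1.67, adjusted p = 0.1).

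Of the 12 pericyte and smooth muscle genes 2 were tested, and Rgs5 was called higher, where 9.86% of all tested genes were. Rgs5, a pericyte marker, had 1, 40 and 46 thyroid and 2, 0 and 0 salivary reads (pooled ratio 14.4, interval 3.88 to 121, edgeR adjusted p = 0.00923). Acta2, smooth muscle actin, had 2, 24 and 4 and 2, 1 and 0 and was not called (adjusted p = 0.37). All 4 tested globin genes were called higher, against the same 9.86% of all tested genes. The globin list held 0.238, 0.528 and 0.376% of thyroid and 0.017, 0.00831 and 0.00424% of salivary reads. Hbb-bt had 3, 177 and 157 and 2, 0 and 0 (pooled ratio 55.9) and Hbb-bs 5, 422 and 286 and 7, 3 and 6 (3.18, adjusted p = 0.0119). The globin genes come in near-identical pairs, so the values of single members are uncertain. The part of blood cells or vessels in the other differences was not tested.

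White blood cell markers had few reads in either gland. None of 8 neutrophil and mast cell genes had a read in these 6 libraries. The 15 macrophage and dendritic cell genes had 12 reads in thyroid and 41 in salivary gland in all, and the 12 B and plasma cell genes 9 and 8. Csf1r had 1 read in each gland, and C1qa and Cd79a had 0 in both. Of the 12 adipocyte genes listed only 3 had any reads in these 6 libraries, and 2 were tested. Those 3 held 0.051, 0.0686 and 0.0745% of thyroid and 0.00522, 0.00277 and 0.00954% of salivary reads. Lpl, lipoprotein lipase, was called higher (0, 23 and 39 against 1, 0 and 0 reads, edgeR adjusted p = 0.02).

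**Figure D4:**
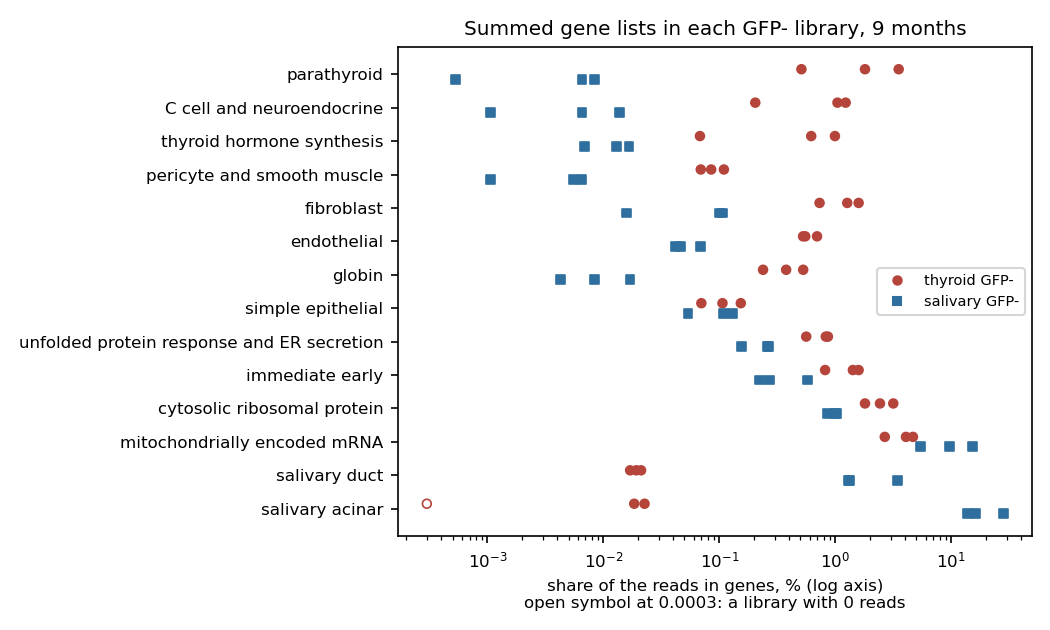
Summed share of the reads in genes, in % on a log axis (horizontal), of 14 gene lists (vertical) in each GFP- library at 9 months, 3 libraries per gland, with an open symbol for 0 reads. Acinar genes hold 13.9 to 28.01% of salivary reads and at most 0.0226% of thyroid reads, and parathyroid genes 0.510 to 3.52% of thyroid reads.

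The 12 highest genes shown in the plot of both ends are those called without overlap between the glands, and several of them belonged to none of the cell type lists. Nnat, the imprinted membrane proteolipid neuronatin, was even between thyroid libraries at 344, 296.8 and 276 normalised CPM and had 0 reads in salivary gland (at least 9.29-fold higher, edgeR adjusted p = 0.000112). Lrp1, a large endocytic receptor, had 2, 30 and 47 thyroid reads and 0 in salivary gland (at least 8.73-fold). Npnt, the basement membrane protein nephronectin, had 1, 33 and 31 and 0 (at least 7.19-fold). Has1, a hyaluronan synthase, had 1, 23 and 43 and 0 (at least 7.41-fold). Fstl1, a secreted follistatin-like protein, had 2, 19 and 24 and 0, and Lama4, a laminin chain of vessel walls, 1, 12 and 17 and 0. Abca8b, a lipid transporter, had 3, 20 and 13, and Col15a1, a collagen near basement membranes that is on the fibroblast list, 1, 15 and 14. These calls rest on few reads: 37 of the 96 higher genes had 0 reads in all salivary libraries and 76 had at most 3.

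Among genes that all cells use, the direction of the fold change followed the scaling. The 3 scalings were all fitted in edgeR. Of all 974 tested genes, 96 were called higher with TMM factors, 469 with DESeq2's size factors and 778 with plain library sizes. Of 65 cytosolic ribosomal protein genes tested 0 were called with TMM factors. With DESeq2's size factors 14 were higher and 0 lower, and with plain library sizes 58 were higher and 0 lower. The median log2 fold change was -0.34, but it was 1.19 with DESeq2's size factors and 1.80 with plain library sizes. Their summed share was 1.8, 3.16 and 2.43% in thyroid and 0.85, 1.011 and 1.02% in salivary gland. Of 32 nuclear genes of oxidative phosphorylation tested, 0 were called with TMM factors, against 3 with DESeq2's size factors and 20 with plain library sizes. Their median was -0.70, or 0.82 with DESeq2's size factors. Malat1, an abundant nuclear RNA, stood at 9743, 30123 and 22124 normalised CPM in thyroid and 33398, 32442 and 44409.8 in salivary gland (log2 fold change -0.83, edgeR adjusted p = 0.806), and its fold change was above 0 under both other scalings.

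Mitochondrial messenger RNAs kept 1 direction under the 3 scalings, with 0 of 6 tested genes called with TMM factors and 3 called lower under each of the other scalings. Of all 974 tested genes, 32 were called lower with DESeq2's size factors and 31 with plain library sizes. Their 13 genes held 9.59, 15.2 and 5.42% of salivary and 2.67, 4.67 and 4.07% of thyroid reads, which do not overlap. In the thyroid GFP- libraries at 3 and 6 months, which the contrast did not use, these genes held 5.13 to 6.31% and 3.21 to 6.28%. Both ranges reach above the 5.42% of salivary replicate 3, so the separation did not extend to those libraries. The median over the 6 tested was -3.25, -1.69 with DESeq2's size factors and -1.08 with plain library sizes. mt-Nd4, a subunit of complex I, stood at 110083, 122820 and 33059 normalised CPM in salivary gland and 3668, 10974 and 9889.9 in thyroid (-3.43, SE 1.45, edgeR adjusted p = 0.0958). mt-Nd2, another subunit, had a fold change of similar size (-3.10, adjusted p = 0.143).

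In lists of secretion load and stress, few genes were called in the reported test and more were called higher under the other scalings. The same rise was seen over all 974 tested genes. Of these, 96 were called higher in the reported test, 469 with DESeq2's size factors and 778 with plain library sizes. The counts below therefore describe the scaling and not these lists. Of 11 tested genes of the unfolded protein response and secretion 0 were called with TMM factors (median 0.03), against 6 with DESeq2's size factors and 10 with plain library sizes. Hspa5, the main chaperone of the endoplasmic reticulum, stood at 802, 2246 and 2739 normalised CPM in thyroid and 1469, 1111 and 1848 in salivary gland (edgeR adjusted p = 0.872). Of 17 immediate early genes, which respond to cell handling among other stimuli, 1 was called: Fosl2 (0, 26 and 25 thyroid and 0, 0 and 1 salivary reads, adjusted p = 0.0184), against 11 with DESeq2's size factors and 16 with plain library sizes. Of 10 heat shock genes 0 were called with TMM factors, against 1 with DESeq2's size factors and 9 with plain library sizes. Of the inflammation genes 1 of 7 was called (Ccl2), against 7 with DESeq2's size factors and 7 with plain library sizes. Of the interferon genes 1 of 8 was called (Isg15), against 5 with DESeq2's size factors and 8 with plain library sizes, and of the antioxidant genes 1 of 11 (Sod3), against 8 with DESeq2's size factors and 10 with plain library sizes. The shares called in the reported test lie near the 9.86% of all tested genes or below it. Of the cell cycle genes Ccnd2, cyclin D2, had 0, 52 and 57 thyroid and 2, 0 and 3 salivary reads and was higher (adjusted p = 0.0361). Gas1, a growth arrest protein, had 0, 14 and 18 and 0 and was higher (adjusted p = 0.0187). Cdkn1a, the inhibitor p21, stood at 0, 357 and 321 and 169.5, 69.5 and 77.6 normalised CPM and was not called (1.56, adjusted p = 0.235).

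The GFP+ cells of the same glands at 9 months gave a second, separate set of libraries in the same fit, 3 per gland, with 993 to 79225 reads in the salivary ones. There 91 genes were higher and 49 lower in thyroid. Of these, 32 were among the 96 higher genes in GFP- cells and 33 among the 42 lower genes. Mucl2 had 2 thyroid and 2561 salivary reads in GFP+ cells, Smgc 0 and 911, Klk1 0 and 420 and Pth 3317 and 0. Calca had 52 and 0 (adjusted p = 0.173) and Tg 124 and 0 (adjusted p = 0.0768), and edgeR called neither. In the test of whether the gland difference itself differed between GFP- and GFP+ cells, 0 of 974 genes were called by edgeR, with 86 at an unadjusted p under 0.05 and a smallest adjusted p of 0.101. DESeq2 was not run on that test.

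**Figure D5:**
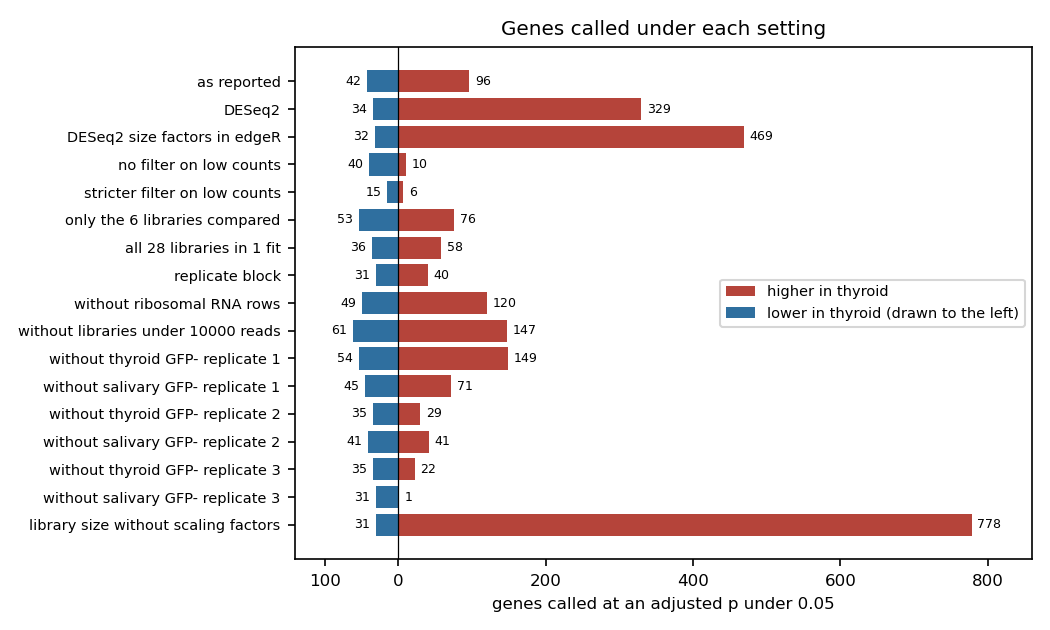
Number of genes called higher in thyroid (bars to the right) and lower (bars to the left) at an adjusted p under 0.05, one row for the reported fit and one for each of 16 alternatives. The lower count stays between 15 and 61, while the higher count runs from 1 without salivary replicate 3 to 778 with plain library sizes.

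How many genes are called higher therefore depends on the fit, as the plot of calls by setting shows. Of the 42 lower genes, 28 were called whichever of the 6 libraries was left out, and of the 96 higher genes 1 was.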

How the data were processed

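Libraries of freshly sorted mouse cells were made with a 3' mRNA kit after column RNA isolation with DNase treatment, per the labels' protocols. The submitters' processing notes name bcl2fastq and the build mm9, without versions. The aligner and the counting program are not given in the sources used here. The authors deposited raw counts per Ensembl gene, 47643 rows per library; 47224 matched a reference symbol. The 5 summary rows were left out of totals and tests (reads outside genes were 13.3 to 65.9% of the 6 libraries). Ribosomal RNA rows (31.1 to 60.4% of reads in genes) were kept.

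The comparison was fitted with edgeR 4.0.16 (R 4.3.3) on the 12 libraries at 9 months in 4 groups of 3, with TMM factors, filterByExpr defaults (minimum 10, total 15), robust quasi-likelihood and Benjamini-Hochberg adjustment at 0.05. The biological coefficient of variation was 0.480 with 8 residual degrees of freedom. Bounds allow 3 reads per group of libraries at 0, and ratios with 1 to 3 reads have exact 95% intervals; both cover counting error only, and PCR reads are not independent molecules.

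Genes named were the 12 highest and 12 lowest called genes without overlap between the glands and a mean log2 CPM of 4 or more, up to 5 called members of each of 37 lists (or its 2 most abundant genes if it had no call), and a small set, such as Tg and Calca, given whatever its result. Other list members are given by their reads, chosen after their values were seen. Members, lists and rule were chosen with earlier results of these data known. Replicate numbers are shared between glands, and the labels do not say whether they mark pairs. Residual correlations of same-numbered libraries were -0.0982 to -0.0847, and they were not used as pairs. Such values, from 3 libraries per gland, cannot show that pairing is absent.

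Tested on simulated data for this comparison with 974 genes, the script recovered 4% of genes changed 2-fold, 40% at 4-fold, 88% at 8-fold and 96% at 16-fold (50 genes each), and called 5 of 774 unchanged genes. Apart from the changed genes, the simulated libraries shared the same mean profile. As many genes were raised as lowered, and all had the same spread. No shift like that of the acinar genes was simulated, so these rates leave out errors from the scaling. The alternatives tried were DESeq2 1.42.0, edgeR with DESeq2's size factors, other filters and sets of libraries, a replicate block, each library left out, and, added after the data were seen, plain library sizes. Some list members are not reported here.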

Additional observations from a re-analysis of the deposited data

How the results depend on the processing

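The count of lower genes moved by more than 1.5 times under 1 setting, the stricter filter, and the count of higher genes under most. Against 96 higher and 42 lower genes, DESeq2 called 329 higher, its size factors in edgeR 469 and plain library sizes 778. No filter on low counts gave 10 higher genes, all 28 libraries in 1 fit 58, the fit without libraries under 10000 reads 147, and a stricter filter 6 higher and 15 lower of 134 tested, which held 1 of the 96 and 1 of the 42. The fits with only the 6 libraries (76 higher, 53 lower) and without ribosomal RNA rows (120 and 49) stayed within 1.5 times. Leaving out 1 library at a time gave 1 to 149 higher and 31 to 54 lower genes: 149 higher without thyroid replicate 1, 29 without thyroid replicate 2, 22 without thyroid replicate 3, 41 without salivary replicate 2 and 1 without salivary replicate 3. A replicate block, although the labels do not say whether the numbers pair the libraries, gave 40 higher genes, all among the 96. It gave 31 lower genes, all among the 42. Among the genes named by the rule above, 6 uncalled ones changed sign and passed the threshold with plain library sizes. These were Cox6c 1.499, Hsp90ab1 1.42, Hspa1b 1.30, Malat1 1.27, Rps21 1.72 and Xist 1.39. Of all 974 tested genes, 537 had fold changes above 0 in the reported fit and 778 were called higher with plain library sizes. Many genes outside the named ones therefore changed sign too. The causes were not tested. Depth limits both glands: 514 of the 974 tested genes had 0 reads in thyroid replicate 1, and 76 of the 96 higher genes had at most 3 salivary reads.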

Other observations

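Of the 138 called genes, 63 of the 96 higher and 11 of the 42 lower belong to none of the gene lists. The genes below were chosen after their values were seen. Sparcl1, a matrix protein of vessels and stroma, had 5, 149 and 114 thyroid and 3, 0 and 1 salivary reads (log2 fold change 4.11, edgeR adjusted p = 0.000997). Serpine2, a protease inhibitor, had 0, 89 and 76 and 0, 1 and 0 (5.22, adjusted p = 0.000434), and Tspan6, a tetraspanin, 0, 69 and 50 and 0, 0 and 1 (adjusted p = 0.000997). Tnmd, tenomodulin, a protein known from tendon, had 6, 53 and 28 and 0, 1 and 0, with the highest normalised level in the shallow replicate 1 (mean 418 ± 245 normalised CPM, SD over 3 libraries). Adamts1, a secreted metalloprotease, had 2, 111 and 110 and 4, 0 and 1, and the basement membrane protein gene Nid1 2, 62 and 70 and 1, 1 and 0. Igfbp4 and Igfbp7, binding proteins of growth factors, had 6, 104 and 163 against 4, 2 and 0 and 3, 175 and 98 against 8, 0 and 8 reads. None of these was called without salivary replicate 3.

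Among the 11 lower genes, Wfdc12, a small secreted protease inhibitor, had 92, 23 and 36 salivary reads and 0 in thyroid (edgeR adjusted p = 1.25e-09) and remained called without salivary replicate 3 (adjusted p = 3.52e-09). Cyp2f2, a cytochrome P450, had 12, 13 and 109 salivary and 3, 22 and 2 thyroid reads, and Plet1, an epithelial surface protein, 4, 11 and 32 and 0, 0 and 18, with all thyroid reads in replicate 3. Apart from Wfdc12, the lower genes outside the lists were not called with DESeq2's size factors.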
